A study of Mus musculus with 6 samples.

Results

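Proteins bound for secretion, for membranes or for the endoplasmic reticulum (ER) itself pass through a shared set of machines, and the transcripts of those machines were compared in C2C12 myotubes with and without palmitate. Genes were taken by symbol: the signal recognition particle and its receptor (Srp, Srpr, Srprb), the Sec61 channel with Sec62 and Sec63, the TRAP complex (Ssr1 to Ssr4), the signal peptidase (Sec11, Spcs), the COPII coat (Sec13, Sec16, Sec23, Sec24, Sec31), the COPI coat (Copa to Copz), the p24 cargo receptors (Tmed), and the Sec22 and Sec14-like genes that the same pattern of symbols includes. It held 91 of the 22690 probe sets on the array, which covered 52 of 12393 genes. A gene was read from its probe set of highest mean log2 signal, and 48 of the 52 genes passed a filter that left out the dimmest 40% of probe sets (signal under 267.1). Tmed6, Tmed8, Tmed11 and Sec14l4 did not pass and were not tested. A further 16 probe sets carried several symbols of which at least 1 fitted the pattern (for Sec61b, Sec61g, Tmed2, Tmed10, Srprb and the Srp54 genes) and were left out.

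C2C12 is an established mouse line of muscle precursor cells that fuse into contracting myotubes when serum is lowered, and it stands here for muscle as a single line in culture. All cultures had been grown with 20% fetal bovine serum and then differentiated for 5 days in medium with 2% horse serum. For 16 h, one group was given 500 µM of the saturated fatty acid palmitate, carried on fatty acid-free bovine serum albumin (BSA), and the control group was given 1% BSA without it. Each group had 3 Affymetrix mouse 430A 2.0 arrays, numbered as replicates without a statement that they came from separate cultures, so the p-values measure only how far these samples spread, and that spread may be technical.

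Nascent secretory proteins are caught by the signal recognition particle as they leave the ribosome, handed to its receptor on the ER membrane, threaded through the Sec61 channel and trimmed by the signal peptidase. Folded cargo leaves the ER in vesicles whose inner coat is made of Sec23 and Sec24 and whose outer cage is made of Sec13 and Sec31. COPI vesicles, coated by the coatomer, carry escaped ER proteins and cargo receptors back from the Golgi. In muscle this route supplies surface receptors, matrix proteins and the membranes of the sarcoplasmic reticulum.

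Correlations over the tested probe sets were 0.943 to 0.959 within a group and 0.883 to 0.910 between groups. The deposited signals had been scaled to a common average (2% trimmed means of 1500.5 to 1500.56), so a shift shared by most transcripts cannot be seen in them. The 9 probe sets for added hybridisation controls of the array's newer (r2) design read 13.15 ± 0.143 (log2 signal, SD, n = 3) with palmitate and 12.82 ± 0.135 with BSA. Scaling to these controls moved the median log2 fold change of all 13575 tested probe sets from -0.0083 to -0.34 and the share of higher transcripts among all calls from 44.9% to 11.3%. The 9 older control probe sets, added as an alternative after the data were seen, moved them to -0.27 and 16.6%. All 13 myotube markers on a fixed list lay above the filter and 0 of them changed in limma (2 were lower at an unadjusted p under 0.05), with summed signals of 170594.9 to 263733.6 with BSA, highest in replicate 1, and 193313.2 to 195828.4 with palmitate. Of the myoblast markers, 2 of 3 lay above the filter. Myod1 fell by 1.33 ± 0.16 (log2, SE, limma adjusted p = 0.000139). Myf5 did not pass (-0.24 ± 0.28, limma adjusted p = 0.603), and its groups overlapped. For endothelial, adipocyte and epithelial cells 0 markers lay above the filter, and 2 of 4 macrophage and 1 of 3 neuronal markers did, with 0 changed in limma (1 at an unadjusted p under 0.05). The part of Myod1-expressing cells in the results below was not tested, and in bulk RNA fewer cells of a type and less RNA per cell cannot be told apart.

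With palmitate, each of the 4 groups of ER entry genes (particle and receptor, channel, TRAP, signal peptidase) held higher genes, and Srprb and Spcs2 were the pair of them called under every alternative run. The vesicle coats and cargo receptors held single genes that rose (Sec23b, Tmed5) or fell (Copz2, Sec16b, Tmed4, Tmed10) among neighbours that did not pass the test. Of the 48 tested genes, 12 were higher with palmitate, 4 were lower and 32 did not pass (limma, Benjamini-Hochberg adjusted p under 0.05 over 13575 probe sets). Among all 7931 genes tested, 7.92% were higher, 12.3% were lower and 20.2% were called in either direction. The median log2 fold change was 0.21 over the 48 genes and -0.051 over all genes. By class, 9 of 20 ER entry genes were higher and 0 were lower (median 0.42). The COPII coat had 1 higher and 1 lower gene of 10 (median 0.057), and the COPI coat had 0 higher and 1 lower of 8 (median 0.040). Of the 6 p24 genes tested, 1 was higher and 2 were lower (median -0.027). The 3 palmitate arrays all lay above the 3 BSA arrays for 20 of the 48 genes, against 15.9% of all genes, and all below for 6, against 22.4%. At an unadjusted p under 0.05 limma gave 13 higher and 0 lower ER entry genes, 2 higher and 1 lower COPII genes, 1 higher and 1 lower COPI gene, and 1 higher and 2 lower p24 genes, where 13.7% of all genes were higher and 19.8% lower. Whether these classes differ from each other was not tested.

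Scaling to the hybridisation controls subtracts 1 value from each array, and so 1 constant from every log2 fold change. The order of genes by log2 fold change therefore cannot move. The controls also differed between arrays of a group, so the scaling changes the spread of each gene within a group. Both changes can move the counts of calls, and their parts were not separated. Relative to the r2 controls, 4 genes were higher and 8 were lower, where 2.61% and 26.4% of all genes were, and the median over the genes tested was -0.12. With the older controls the counts were 4 and 7, where the shares of all genes were 3.61% and 23.2%, and the median was -0.045. The median of these genes lay above that of all genes by 0.265 as reported, by 0.264 with the r2 controls and by 0.265 with the older ones. A constant cancels in this gap, so the gap had to stay the same apart from rounding and is no sign of stability. Srprb, Spcs2, Sec23b and Tmed5 remained higher and Copz2 remained lower under all 17 alternatives run, 2 of which were chosen after seeing the data. The other 11 calls were each lost under at least 2 alternatives.

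**Figure D1:**
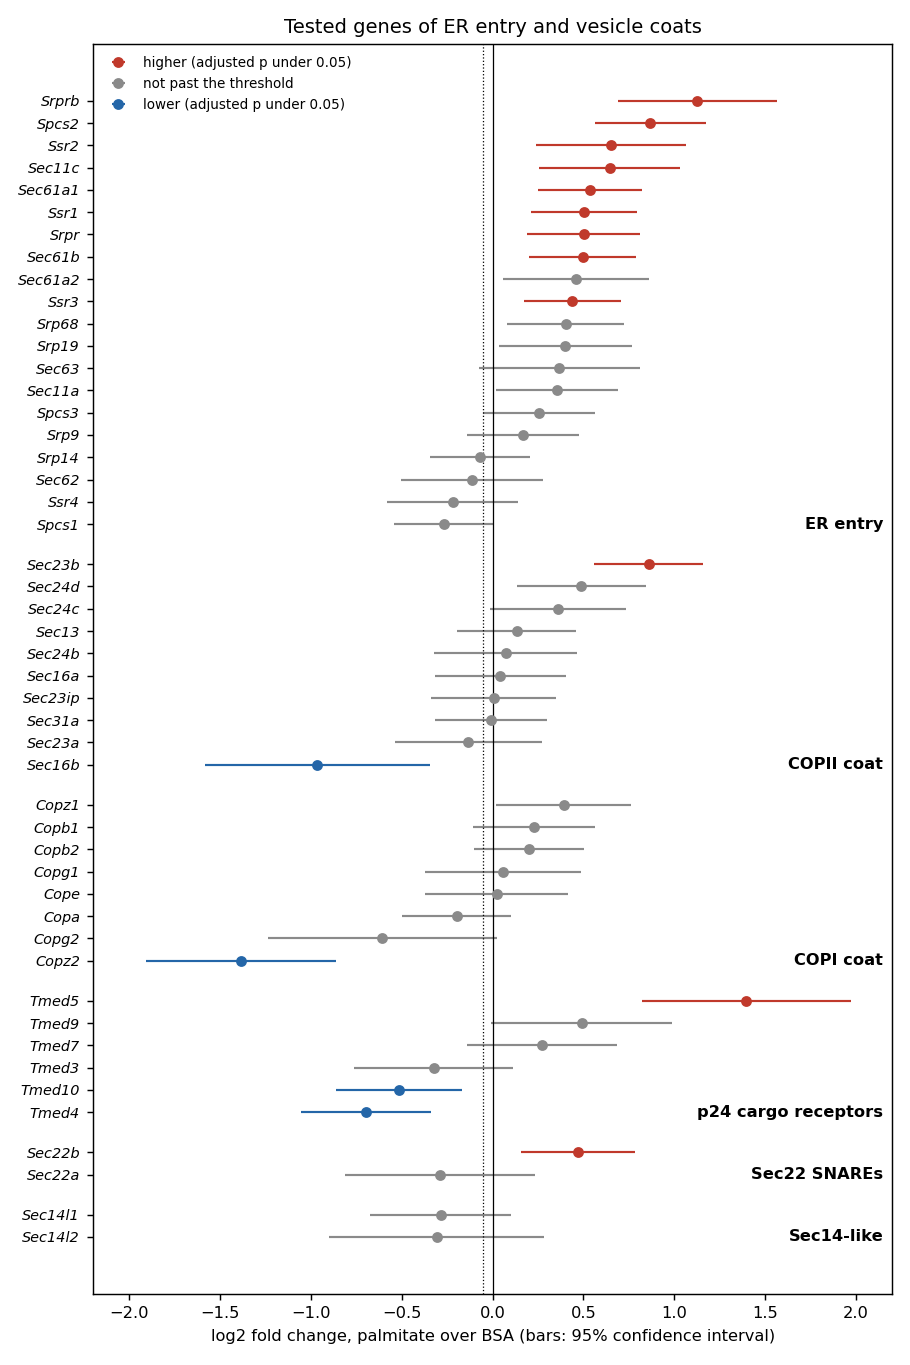
Log2 fold change of palmitate over BSA for the 48 tested genes, by class, with 95% confidence intervals from limma (3 arrays per group). The solid line marks 0 and the dotted line the median over all genes tested (-0.051). Of the 20 ER entry genes 16 lie to the right of 0, and the widest spread within a class is that from Tmed5 (1.40) to Tmed4 (-0.70) and from Sec23b (0.86) to Sec16b (-0.96).

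Promoter sequence is shown for the 5 genes whose calls held under every alternative, a choice made from those results. Sequences are from RefSeq, mouse assembly GRCm38.p6, and run 5′ to 3′ on the gene's own strand over the 250 bases before its start. They lie at chr9:103202066-103202315 on the minus strand for Srprb, chr7:99858884-99859133 (minus) for Spcs2, chr2:144555979-144556228 (plus) for Sec23b, chr5:108132621-108132870 (minus) for Tmed5 and chr11:96849626-96849875 (plus) for Copz2. For Sec23b this is the upstream of 2 starts listed. Capitals mark the letters CCAAT or CCACG on either strand, read as ATTGG or CGTGG when they lie on the other strand.
Srprb: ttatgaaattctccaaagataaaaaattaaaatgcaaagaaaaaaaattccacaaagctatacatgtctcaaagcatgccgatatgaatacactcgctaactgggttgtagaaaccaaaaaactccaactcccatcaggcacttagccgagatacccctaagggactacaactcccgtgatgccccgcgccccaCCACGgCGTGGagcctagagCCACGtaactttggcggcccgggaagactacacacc
Spcs2: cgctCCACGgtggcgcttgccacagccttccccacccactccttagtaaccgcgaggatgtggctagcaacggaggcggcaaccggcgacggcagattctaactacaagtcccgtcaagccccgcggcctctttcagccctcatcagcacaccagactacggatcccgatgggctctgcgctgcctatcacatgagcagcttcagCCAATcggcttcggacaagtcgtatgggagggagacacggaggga
Sec23b: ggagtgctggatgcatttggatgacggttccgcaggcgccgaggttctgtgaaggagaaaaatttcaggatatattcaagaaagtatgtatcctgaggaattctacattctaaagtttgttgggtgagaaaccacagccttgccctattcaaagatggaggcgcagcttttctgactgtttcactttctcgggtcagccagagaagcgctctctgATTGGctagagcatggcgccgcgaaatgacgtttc
Tmed5: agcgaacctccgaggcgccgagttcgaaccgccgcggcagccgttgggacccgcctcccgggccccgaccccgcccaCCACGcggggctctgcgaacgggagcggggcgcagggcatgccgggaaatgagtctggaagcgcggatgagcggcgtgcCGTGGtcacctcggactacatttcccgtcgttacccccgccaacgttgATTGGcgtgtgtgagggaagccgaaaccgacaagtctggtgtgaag
Copz2: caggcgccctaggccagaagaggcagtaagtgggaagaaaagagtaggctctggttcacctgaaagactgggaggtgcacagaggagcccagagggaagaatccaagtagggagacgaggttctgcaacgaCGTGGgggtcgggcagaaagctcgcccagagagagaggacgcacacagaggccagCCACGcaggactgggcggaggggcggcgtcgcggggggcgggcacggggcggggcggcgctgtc
Srprb holds 3 copies of CCACG close to its start and Tmed5 holds 2, with a CCAAT box nearer the start. Spcs2 has 1 of each, Sec23b has a CCAAT box alone, and Copz2, which fell, holds 2 copies of CCACG and no CCAAT box.

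CCAAT and CCACG are the ends of the ER stress response element, a sequence to which ATF6 and XBP1 bind. The search over 47 promoters of the 43 genes with an entry in the table first used 4 longer motifs on both strands. The ER stress response element (CCAAT and CCACG with 9 bases between) and its second form (ATTGG and CCACG with 1 base between) were in 0 of 47, against 0.113% and 0.0304% of all 32851 promoters in the table. The XBP1-binding element TGACGTGG was in 3 of 47 (6.38% against 0.563%), and the cyclic AMP response element TGACGTCA was in 1 (2.13% against 1.55%). None of these 4 motifs was in the 10 promoters of genes that rose. The short letters were added after that outcome was seen, and the shares were then counted per promoter instead of per gene. CCACG was in 61.7% of the 47 promoters and in 28.3% of all promoters, and CCAAT was in 36.2% and 33.8%. CCACG was in 6 of the 10 promoters of genes that rose, in 4 of the 5 of genes that fell and in 17 of the 30 of genes that did not pass. CCAAT was in 7 of 10, 3 of 5 and 7 of 30 in the same order, and both together were in 4 of 10, 2 of 5 and 4 of 30, against 9.26% of all promoters. Neither set of letters separated genes that rose from genes that fell, and these splits are descriptions with no test. The promoters were not matched for base composition, and a match of letters is a description and not a binding site.

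The 4 matches to the longer motifs are shown with their flanks because they are the only matches to those motifs, and all lie in coat genes. Of the 9 ER entry genes that rose, 6 had a promoter entry and could be searched. Capitals mark TGACGTGG (as CCACGTCA in Copb1, where it lies on the other strand) or, in Cope, TGACGTCA. Every TGACGTGG also contains CCACG on its other strand. The windows lie at chr7:114254681-114254728 (minus) for Copb1, chr1:157506732-157506779 (plus) for Sec16b, chr3:123267450-123267495 (plus) for Sec24d and chr8:70302537-70302584 (plus) for Cope.
Copb1: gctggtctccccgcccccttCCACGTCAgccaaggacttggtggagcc
Sec16b: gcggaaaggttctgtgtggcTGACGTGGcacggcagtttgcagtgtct
Sec24d: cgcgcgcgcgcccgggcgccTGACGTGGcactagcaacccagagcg
Cope: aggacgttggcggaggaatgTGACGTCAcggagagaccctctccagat
With palmitate Sec16b fell, while Copb1, Sec24d and Cope did not pass the test (log2 fold changes 0.23, 0.49 and 0.023), so the genes with these matches had no common direction.

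Transcripts of the signal recognition particle receptor rose with palmitate. In the values that follow, the 3 numbers of a group are replicates 1, 2 and 3. Srprb, which encodes the membrane-spanning beta subunit that anchors the receptor, had signals of 1911, 1271 and 1221 with BSA and 3078, 3444 and 2906 with palmitate. The groups did not overlap, and BSA replicate 1 was the highest of the controls. Srprb was 2.18-fold higher (log2 fold change 1.13 ± 0.20 SE, n = 3 per group, limma adjusted p = 0.00231), and it and Tmed5 were the 2 members that rose at least 2-fold, as 2.48% of all genes did. Srpr, the alpha subunit that docks the particle, read 7148, 7155 and 6377 with BSA and 10299, 8412 and 10675 with palmitate. All palmitate arrays were above all BSA arrays, for a 1.42-fold rise (0.50 ± 0.14, adjusted p = 0.0291). The particle's own proteins were measured by 4 genes, of which 0 passed in limma (2 higher at an unadjusted p under 0.05, as 13.7% of all genes were). Srp68 and Srp19, which bind its RNA, had log2 fold changes of 0.40 (95% interval 0.080 to 0.72) and 0.40 (0.034 to 0.77). Srp9 and Srp14, the pair that slows translation, had 0.17 (-0.14 to 0.47) and -0.069 (-0.34 to 0.21).

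The Sec61 channel, through which the chain crosses or enters the membrane, was higher in 2 of its 3 measured genes (7.92% of all genes were). Sec61a1, the main pore subunit, had signals of 12605, 10198 and 11426 with BSA and 16581, 15519.7 and 17319.7 with palmitate. The groups were apart, and the rise was 1.45-fold (0.53 ± 0.13, limma adjusted p = 0.0144). Sec61b, the small beta subunit, read 8648, 8593 and 8781 in the closely spaced BSA arrays and 14099.8, 11505 and 11291 with palmitate, a 1.41-fold rise (0.50 ± 0.14, adjusted p = 0.0237). Palmitate replicate 1 was the highest of that group. Sec61a2, the second form of the pore subunit, read 1707, 2248 and 2300.4 with BSA and 3066, 3077.5 and 2418 with palmitate. Its groups did not overlap either, but the difference did not pass (0.46 ± 0.18, adjusted p = 0.107). Sec62 and Sec63, which help chains enter after their synthesis is complete, had log2 fold changes of -0.11 (95% interval -0.50 to 0.28) and 0.37 (-0.073 to 0.81) and did not pass.

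TRAP is a complex beside the channel that helps certain signal sequences to open it. As reported, 3 of its 4 subunits were called higher, where 7.92% of all genes were. Of the 17 alternatives, these calls remained under 9 for Ssr1, 8 for Ssr2 and 6 for Ssr3. All were lost with each control scaling, without an intensity trend and with the replicate block. Ssr2 had signals of 3936, 2877 and 3073 with BSA and 5075.5, 6380.0 and 4168 with palmitate, a 1.57-fold rise (0.65 ± 0.19, limma adjusted p = 0.0316). Its palmitate arrays were spread widely, and the lowest of them was close to BSA replicate 1. Ssr1 read 7920.5, 9279 and 8780.2 with BSA and 12869, 11201 and 12721 with palmitate (1.42-fold, 0.50 ± 0.13, adjusted p = 0.0206), and Ssr3 read 9419.6, 10475 and 10040.3 against 13732, 13434 and 13379 (1.36-fold, 0.44 ± 0.12, adjusted p = 0.0266). Neither gene's groups overlapped, and the palmitate arrays of Ssr3 were nearly level. Ssr4 did not share this direction, at -0.22 (95% interval -0.58 to 0.14).

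The signal peptidase, which removes the signal sequence, had 2 higher genes of 5, where 7.92% of all genes were higher. Spcs2, an accessory subunit, had signals of 4199, 3797 and 4017 with BSA and 6918, 7954 and 7064 with palmitate. The groups were far apart relative to their spread, and the rise was 1.82-fold (0.87 ± 0.14, limma adjusted p = 0.00119). Sec11c, one of its catalytic subunits, read 2087, 2327 and 2841 with BSA and 4081, 3163 and 4076 with palmitate, a 1.56-fold rise with no overlap (0.64 ± 0.18, adjusted p = 0.0259). Sec11a, the other catalytic subunit, read 7141, 6139 and 5072 with BSA and 7978.5, 7352 and 7913 with palmitate and did not pass (0.35 ± 0.15, adjusted p = 0.134), although its groups were apart. With its probe sets averaged Sec11a was called higher at 1.36 (limma adjusted p = 0.0149, against 0.049 to 0.954 under the other alternatives), and that mean takes in a second probe set with signals of 6.4 to 85.7, which the filter had left out. Spcs3, which is needed for cleavage, had 0.26 (95% interval -0.051 to 0.56). Spcs1 was the only ER entry gene whose palmitate arrays all lay below the BSA arrays, and it did not pass (-0.27, -0.54 to 0.0042).

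The number of ER entry calls changed when 1 array was left out and with the scaling. Without 1 array the log2 fold changes of the 9 genes called higher lay between 0.39 (Sec61b) and 1.33 (Srprb). Ssr3 lost its call whichever of the 6 arrays was left out, at 0.398 to 0.475. Of the 9 genes, 7 remained higher without BSA replicate 1, 3 without BSA replicate 2, 4 without BSA replicate 3, 2 without palmitate replicate 1, 7 without palmitate replicate 2 and 4 without palmitate replicate 3. Srprb and Spcs2 were among those kept each time, and Srp68 and Sec11a became calls without BSA replicate 1, as Srp19 did without palmitate replicate 2. Of all genes, 7.92% were higher with all arrays, and 7.72%, 4.89% and 5.7% without BSA replicates 1, 2 and 3. Without palmitate replicates 1, 2 and 3 the shares were 5.51%, 6.71% and 5.37%. Relative to either set of hybridisation controls, Srprb and Spcs2 remained higher and Spcs1 became lower, and the class median was 0.087 with the r2 controls.

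**Figure D2:**
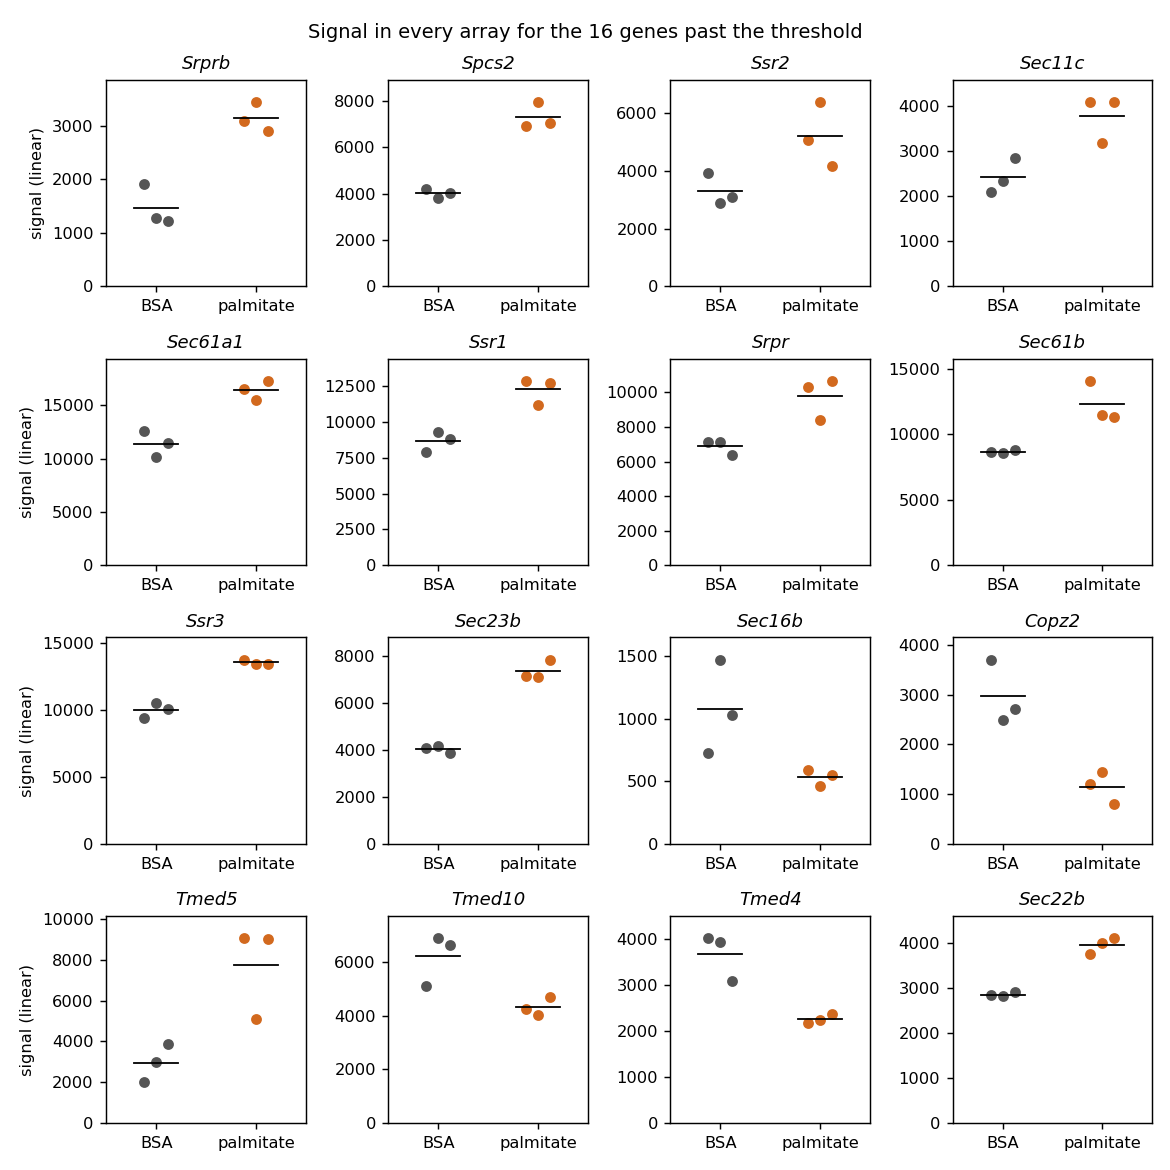
Deposited signal (linear scale, from 0) on each of the 6 arrays for the 16 genes past the threshold, with a bar at each group's mean (3 arrays). The groups do not overlap for any of the 16, and the gap is narrow for Ssr2 and Tmed10 and wide for Spcs2 and Sec23b.

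In the COPII coat 1 gene rose, 1 fell and 8 did not pass (of all genes, 7.92% were higher and 12.3% lower). Sec23b, one of the forms of the inner coat protein Sec23, had signals of 4100.3, 4184 and 3877 with BSA and 7145, 7074 and 7835 with palmitate. No palmitate array came near a BSA array, and the rise was 1.81-fold (0.86 ± 0.14, limma adjusted p = 0.00109). Its close relative Sec23a read 3201, 4246.5 and 4085 with BSA and 3547, 2827 and 4197 with palmitate, with groups that overlapped (-0.13 ± 0.19, adjusted p = 0.666). Sec16b, a scaffold at ER exit sites, read 725, 1471 and 1029.6 with BSA and 587, 461 and 547 with palmitate. The BSA arrays differed 2-fold among themselves but stayed above the palmitate arrays, and the gene fell by 0.96 ± 0.28 on the log2 scale (adjusted p = 0.0328). That call remained without BSA replicate 1 and was lost without any of the other 5 arrays.

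Sec24 proteins choose the cargo of COPII vesicles, and 0 of the 3 measured forms passed in limma (1 higher at an unadjusted p under 0.05, as 13.7% of all genes were). Sec24d had signals of 2997.5, 3214 and 3772 with BSA and 4488, 4196 and 5331 with palmitate, which did not overlap, and it lay just outside the threshold (0.49 ± 0.16, limma adjusted p = 0.054). It was called higher with 75th percentile scaling, with a filter at the 60th percentile and with all probe sets of a gene averaged. Sec24c read 3741, 2719 and 2741 with BSA and 4203, 3829 and 3665 with palmitate (0.36 ± 0.17, adjusted p = 0.167), with BSA replicate 1 inside the palmitate range. Without that array Sec24c was called higher. Sec24b read 1762.5, 1598 and 1451 against 1907, 1601 and 1553 and showed no separation (0.071 ± 0.18). The outer cage proteins Sec13 and Sec31a, the scaffold Sec16a and the Sec23-binding protein Sec23ip lay between -0.0083 and 0.13, with 95% intervals that reached from -0.34 at the lowest to 0.46 at the highest.

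In the COPI coat 1 gene of 8 fell and 7 did not pass (12.3% of all genes were lower). Copz2, one of the forms of the small zeta subunit, had signals of 3706, 2492 and 2705 with BSA and 1199, 1457 and 807 with palmitate. Every palmitate array was far below every BSA array, and the gene fell by 1.38 ± 0.24 on the log2 scale, which is 2.61-fold lower (limma adjusted p = 0.00192). Copz1, the other zeta form, went the other way without passing, from 3977, 2821 and 2904 to 4010.5, 4513 and 4059 (0.39 ± 0.17, adjusted p = 0.136), and its lowest palmitate array was only just above BSA replicate 1. Without that BSA array Copz1 was called higher. Copg2, a form of the gamma subunit that binds cargo and the Arf1 GTPase, read 654, 489 and 675.9 with BSA and 382, 371 and 431 with palmitate. Its groups did not overlap, but at these low signals the difference did not pass (-0.61 ± 0.29, adjusted p = 0.169). Copg1 read 3774, 2975 and 2534 against 2545, 3635 and 3470.0 and overlapped fully (0.058 ± 0.20). The remaining subunits Copb1, Copb2, Cope and Copa had log2 fold changes of 0.23, 0.20, 0.023 and -0.20, with 95% intervals from -0.50 at the lowest to 0.56 at the highest. Relative to either set of hybridisation controls Copa became a lower call beside Copz2.

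Both zeta genes contain a microRNA, and they are shown because the pair moved apart. In RefSeq GRCm38.p6 Mir152 lies within Copz2 and Mir148b within Copz1. The 3p arms lie at chr11:96850439-96850459 and chr15:103285185-103285206, both on the plus strand, and capitals mark the seed, bases 2 to 8.
mmu-miR-152-3p: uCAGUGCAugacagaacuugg
mmu-miR-148b-3p: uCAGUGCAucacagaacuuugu
The seeds are identical. The array has probes for the host transcripts, and the microRNAs were not measured here.

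The p24 proteins, which travel between ER and Golgi in both kinds of vesicle and help select cargo such as GPI-anchored proteins, had 6 tested genes. The transcript of Tmed5 rose, those of Tmed4 and Tmed10 fell and the other 3 did not pass. Tmed5 had signals of 1986, 2995.5 and 3853 with BSA and 9049.9, 5112 and 9033 with palmitate, a 2.63-fold rise (1.40 ± 0.26, limma adjusted p = 0.00331). The groups did not overlap, although palmitate replicate 2 lay nearer the controls than the others did. Tmed4 fell from 4014, 3926 and 3096.5 to 2163, 2241 and 2363.5 (by 0.70 ± 0.16 on the log2 scale, adjusted p = 0.0118). Tmed10, a family member that pairs with others in larger complexes, fell from 5114, 6876 and 6630.3 to 4255, 4025 and 4682 (by 0.51 ± 0.16, adjusted p = 0.0407). For both genes all palmitate arrays were below all BSA arrays. Tmed4 was not called without BSA replicate 2, and Tmed10 was called without BSA replicate 1 and lost without each of the other 5 arrays.

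Of the remaining p24 genes, Tmed9, Tmed7 and Tmed3 did not pass, at 0.49 (95% interval -0.0061 to 0.99), 0.27 (-0.14 to 0.68) and -0.32 (-0.76 to 0.11). In the brightest probe sets of Tmed5, Tmed7 and Tmed9 palmitate replicate 2 was the lowest palmitate array, and without it Tmed9 was called higher. In the other probe set of Tmed5 (5421, 5139 and 3816) and of Tmed9 (9277, 7408 and 7092.5) replicate 3 was the lowest. In the other tested probe sets of Tmed7 replicate 2 was again the lowest (3628.5, 1981.7 and 4193.8, and 5254.2, 4809.1 and 5607.2). Palmitate replicate 2 also had a Gapdh 3′ minus 5′ difference of -0.20 (log2), against 0.19 to 0.35 on the other 5 arrays, and the part of RNA quality in these values was not tested. Tmed6, Tmed8 and Tmed11 were dim, with single-array signals of at most 583, and were not tested.

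Sec22b, a SNARE on vesicles between ER and Golgi, had signals of 2845, 2818 and 2914 with BSA and 3765, 4009 and 4111 with palmitate. Both groups were tight and apart, and the rise was 1.38-fold (0.47 ± 0.15, limma adjusted p = 0.0402). The call was lost when any 1 of the 6 arrays was left out, with fold changes of 0.44 to 0.51 and adjusted p of 0.0578 to 0.123. Sec22a did not pass (-0.29 ± 0.24, adjusted p = 0.441). Sec14l1 and Sec14l2 bind lipids and are no part of the coats, and they did not pass at -0.29 ± 0.18 and -0.31 ± 0.27. Sec14l4 was dim and was not tested.

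Several genes were read by more than 1 probe set, which gives a second look at the same transcripts in the same RNA. All 6 probe sets of Sec61a1 were higher with palmitate, by log2 fold changes of 0.53 to 1.71, and its brightest probe set gave the smallest of these. Palmitate replicate 2 was the highest array in the probe sets with 1.71, 1.51, 1.33 and 0.69. Replicate 3 was the highest in that with 0.80 and in the brightest, where replicate 2 was the lowest palmitate array. The part of RNA quality in these differences was not tested. Both probe sets of Spcs2 (0.87 and 0.92) and both of Tmed5 (1.40 and 1.00) were higher. Srprb was higher in 2 of 3 (1.13 and 2.14) and did not pass in the third (0.39), and Ssr1 was higher in 2 of 3 (0.50 and 0.94, against 0.079 at the dimmest). For 2 genes the brightest probe set did not pass and the other did: Sec61a2 (0.46 and 0.79) and Tmed9, whose brightest probe set is of the kind that can cross-hybridise (0.49, against 0.75 with limma adjusted p = 0.00964 for the other). The reverse held for Sec22b (0.47 and 0.13). Over all probe sets tested, 8.63% were higher, 10.6% were lower and 19.2% were called in either direction.

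**Figure D3:**
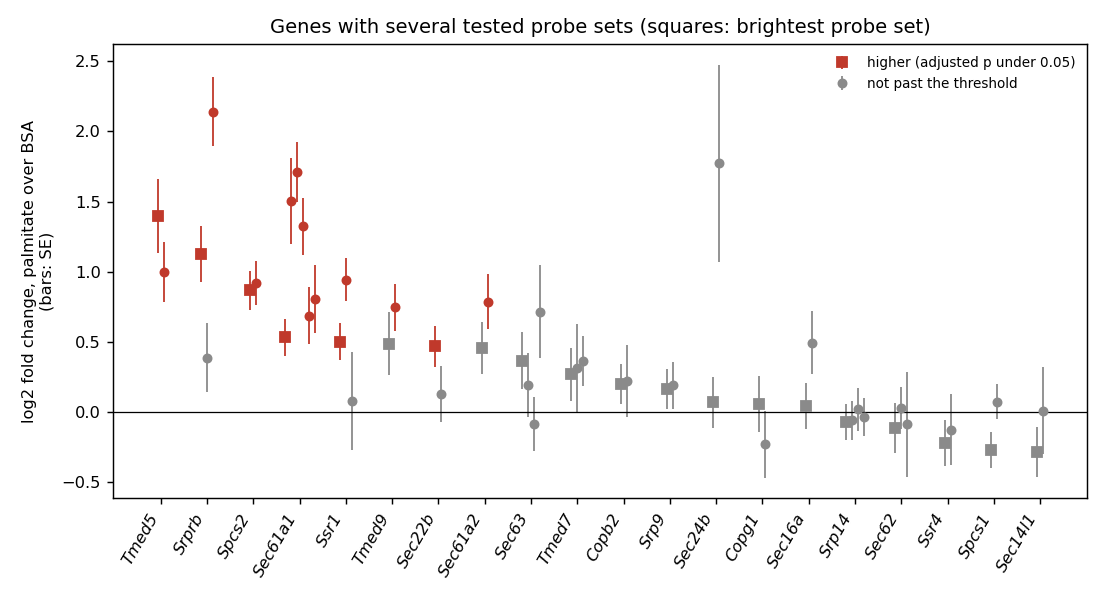
Log2 fold change of palmitate over BSA (± SE, 3 arrays per group) for each tested probe set of genes with several. Squares mark the brightest probe set, which represents the gene elsewhere in the text. The 6 probe sets of Sec61a1 all lie above 0.5, and those of Sec24b lie far apart (0.071 and 1.77).

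Paralogs of the coats and of the channel were compared within each array, as the log2 ratio of 2 genes, which does not move when the whole array is multiplied by a constant. Of 12 listed pairs, 8 had both genes tested. In 4 of the 8 the ratios of the groups did not overlap, each with a two-sided exact permutation p of 0.1, the smallest that 3 arrays against 3 can give, and 0.2 after adjustment over the 8 pairs, so no pair can pass a threshold of 0.05 by this test. How often other pairs of genes lie apart in this way was not counted, so the 4 of 8 is a description only. Copz1 moved up against Copz2 by 1.77 ± 0.22 (log2, SE), and this ratio had an SD of 0.044 over the BSA arrays and 0.376 over the palmitate arrays. Sec23a moved down against Sec23b by 0.99 ± 0.19. Copg1 moved up against Copg2 by 0.67 ± 0.27. Sec24b minus Sec24c was -0.29 ± 0.099, and its sign turned to 0.56 with all probe sets of a gene averaged. The other 4 pairs overlapped: Sec24b minus Sec24d (-0.42 ± 0.24), Sec24c minus Sec24d (-0.13 ± 0.27), Sec61a1 minus Sec61a2 (0.077 ± 0.27) and Sec11a minus Sec11c (-0.29 ± 0.29), with exact permutation p of 0.2 to 0.8. Each of these 4 changed sign under at least 1 alternative.

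**Figure D4:**
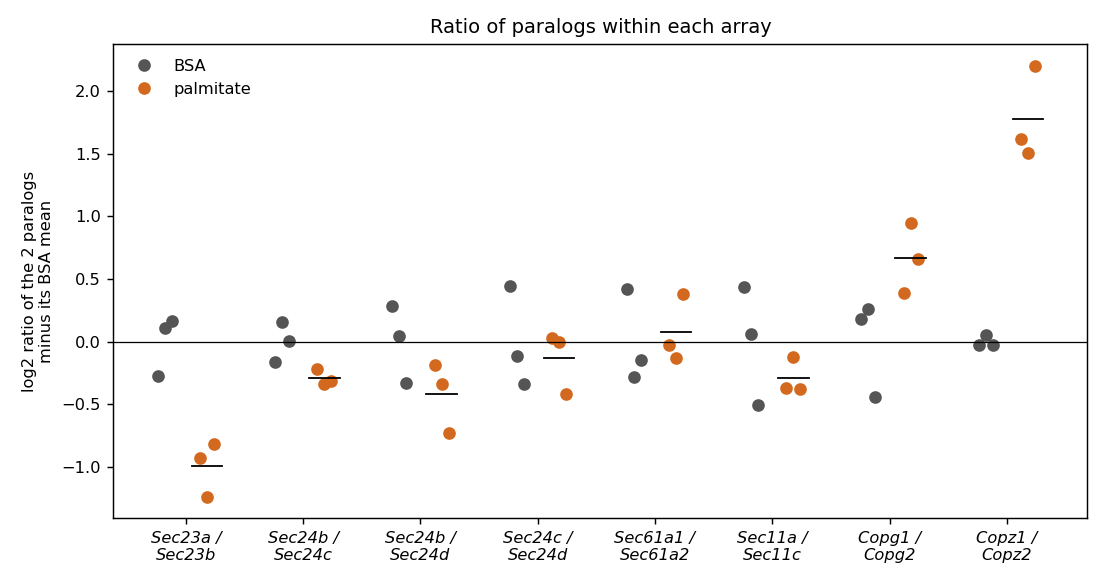
Log2 ratio of 2 paralogs within each array, with the mean of the 3 BSA arrays set to 0 for each pair. Points are arrays and bars are the means of the 3 palmitate arrays. The ratio rises by 1.77 for Copz1 over Copz2, falls by 0.99 for Sec23a over Sec23b, and overlaps between groups for 4 of the 8 pairs.

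Other genes of the route were listed by role without regard to the symbol pattern. Of 72 listed, 65 were on the array and 63 were tested, of which 5 were higher and 0 lower (median 0.084). The share of higher genes was close to the 7.92% of all genes, so the list as a whole held no excess of them. At an unadjusted p under 0.05 limma gave 11 higher and 3 lower, where 13.7% and 19.8% of all genes were. Serp1, which stabilises membrane proteins at the translocon under stress, rose from 4839, 7144 and 6316 to 12327.5, 10920.4 and 10787.5 (1.88-fold, 0.91 ± 0.16, limma adjusted p = 0.0022). Get3, which delivers tail-anchored proteins to the ER, rose from 5014.5, 4096 and 4371.5 to 5279.8, 7844 and 9735 (1.65-fold, adjusted p = 0.0283). Surf4, a receptor for soluble cargo, rose from 5949.6, 4707 and 4898 to 7292, 11166 and 7179 (1.62-fold, adjusted p = 0.0217). The groups did not overlap for any of these, but palmitate replicate 1 of Get3 lay close to the controls. Uso1, a tether of ER-derived vesicles, rose from 4482, 3876 and 4216 to 6484.5, 6774 and 6145.5 (1.54-fold, adjusted p = 0.0088), and Gosr2, a Golgi SNARE, rose from 4277, 3847 and 4069 to 5465, 5549 and 5565.5 (1.36-fold, adjusted p = 0.0408). The GTPases that start coat assembly, named after their values were seen, did not pass, at 0.089 for Sar1a, 0.25 for Sar1b and 0.011 for Arf1. Relative to the r2 hybridisation controls 1 of these listed genes was higher and 10 were lower, where 2.61% and 26.4% of all genes were, and with the older controls 1 and 8, where 3.61% and 23.2% were.

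**Figure D5:**
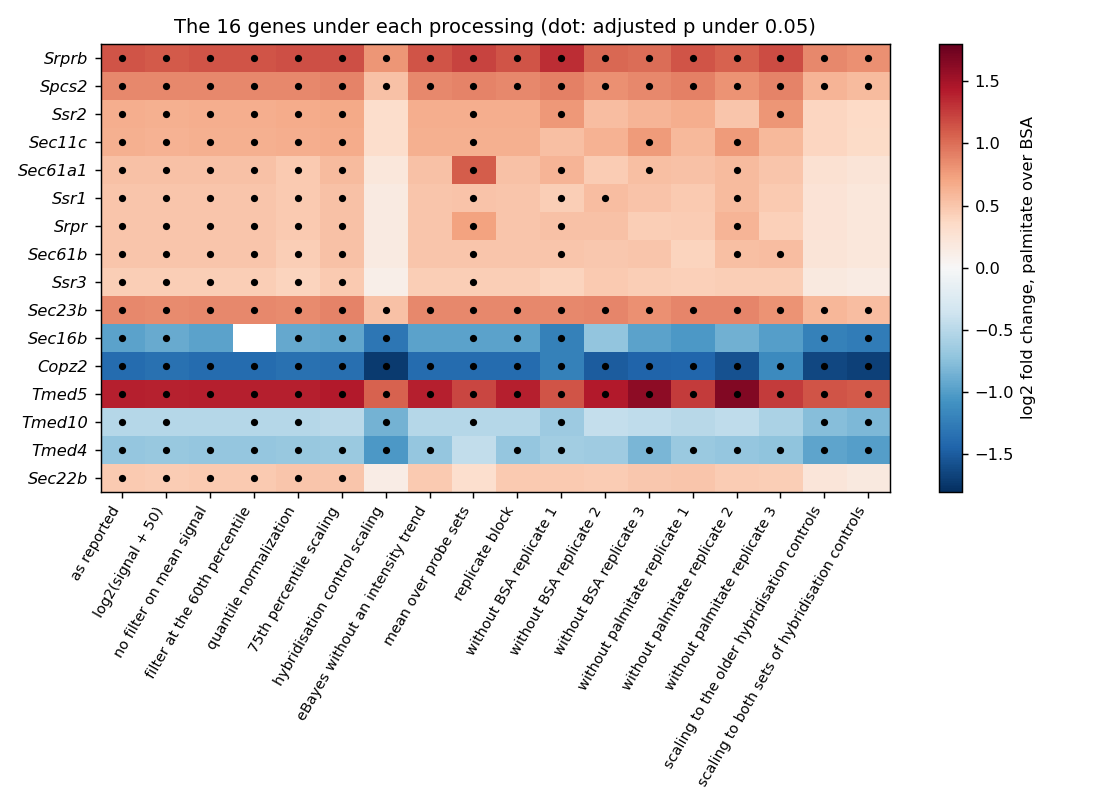
Log2 fold change (colour) of the 16 called genes as reported and under 17 alternatives; a dot marks adjusted p under 0.05 and a white square a gene left out by the filter. The dots of Srprb, Spcs2, Sec23b, Copz2 and Tmed5 are complete, and those of Sec22b remain under 5 alternatives.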

How the data were processed

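Transcripts of 6 samples were measured on Affymetrix mouse 430A 2.0 arrays. The deposited signal intensities are linear, 1 for each probe set, and come from MAS 5 per the submitters' processing notes. Its settings and detection calls are not given in the sources used here, and no background level is known for dim probe sets. The platform annotation gave 20380 of 22690 probe sets 1 symbol, 691 several and 1555 none, besides 64 controls.

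Log2 signals without an offset were fitted with limma 3.58.1 (R 4.3.3; lmFit and eBayes with its intensity-trend option) after probe sets at or under the 40th percentile were left out. Two-sided p-values were adjusted by Benjamini-Hochberg over the 13575 probe sets left. The fit was also run on simulated data with independent noise at its own estimated variances. That run checks the code, and it holds no differences between whole arrays, so it cannot show how the fit does on these data. Precision is limited by the number of arrays. The text gives values by array for members past the threshold and for paralog pairs, and names of the pathway partners up to 5 of the largest rises and falls among those past the threshold. Members, lists and tests were chosen with earlier results of these data known. Replicate numbers were not taken to pair the samples in the main fit. Deviations of same-numbered arrays from their group means correlated at -0.233, -0.133 and 0.009. The largest correlation between differently numbered arrays of the groups was 0.259. With 3 arrays per group the deviations of a group sum to 0, so these values cannot settle whether samples were paired. Scan dates were not used and batches were not examined. Coordinates are those of the RefSeq sequence tables, as the array values have no genome build.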

Additional observations from a re-analysis of the deposited data

How the results depend on the processing

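The 15 alternatives planned and the 2 added after the data were seen changed 1 choice each, and 5 of the 16 called genes (4 higher, 1 lower) were called under all 17. The planned scaling named the hybridisation controls without saying which of 2 sets; the r2 set was taken after both had been seen, so the older set and both together were added. The cause of the changes below was not tested, beyond the smaller number of arrays when 1 is left out. Against 12 higher member genes as reported, 4 were higher with each control scaling, without an intensity trend and with the replicate block, and 4 to 13 when 1 array was left out. Of all genes, 7.92% were higher as reported, 2.61% to 3.61% with the control scalings, 5.7% without a trend and 5.72% with the block. Without 1 array 4.89% to 7.72% of all genes were higher. Against 4 lower, 8 (r2) and 7 (older, or both sets) were lower with control scaling, 2 with no filter and without a trend, and 1 to 4 without 1 array. Of all genes, 12.3% were lower as reported, 23.2% to 26.4% with the control scalings and 6.71% with no filter. The share was 9.92% without a trend, 9.54% with the block and 7.16% to 10.9% without 1 array. These shares of all genes stand beside the class and partner counts that follow as well. ER entry genes higher went from 9 to 2 with each control scaling, without a trend and with the block, and to between 2 and 9 without 1 array, and 1 was lower in place of 0 with each control scaling.

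COPII genes higher went from 1 to 2 with a 60th percentile filter, 75th percentile scaling and averaged probe sets (1 to 2 without 1 array), and lower from 1 to 0 with no filter, the 60th percentile filter and no trend (0 to 1 without 1 array). Of all genes, 11.1% were higher and 14.9% lower with the 60th percentile filter. With 75th percentile scaling 8.55% were higher and 11.2% lower, and with averaged probe sets 9.36% and 11%. COPI genes lower went from 1 to 2 with each control scaling, and higher from 0 to between 0 and 1 without 1 array. The p24 genes higher went from 1 to 2 with averaged probe sets (1 to 2 without 1 array), and lower from 2 to 1 with no filter, 75th percentile scaling, no trend, averaged probe sets and the block (0 to 2 without 1 array). Pathway partners higher went from 5 to 1 with each control scaling and 2 without a trend (2 to 7 without 1 array), and lower from 0 to 10 (r2, or both sets), 8 (older) and 1 with averaged probe sets (0 to 1 without 1 array).

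With r2, older and both sets of controls, in that order, the median of the members turned to -0.12, -0.045 and -0.082, of COPII to -0.28, -0.20 and -0.24, of COPI to -0.29, -0.22 and -0.26 and of the partners to -0.25, -0.17 and -0.21, and Copg1 turned to -0.28, -0.20 and -0.24 and Sec24b to -0.26, -0.19 and -0.22. The COPII median, 0.057 as reported, was 0.20 with averaged probe sets and 0.029 to 0.14 without 1 array (0.14 without BSA replicate 1, 0.029 without BSA replicate 3). The COPI median was -0.032 with averaged probe sets and -0.074 to 0.18 without 1 array, and that of p24 was 0.20 with no filter, 0.0040 with 75th percentile scaling and -0.090 to 0.031 without 1 array. Copg1 turned to -0.086 with averaged probe sets and ranged from -0.076 to 0.22 without 1 array, Sec24b from -0.020 to 0.14, Sec23a from -0.27 to 0.016 and Sec31a from -0.088 to 0.064, and Sec31a was 0.023 with 75th percentile scaling; none of these 4 genes was called. With averaged probe sets the paralog differences turned to 0.56 (Sec24b minus Sec24c), 0.43 (Sec24b minus Sec24d) and 0.72 (Sec11a minus Sec11c). Sec61a1 minus Sec61a2 was -0.016 after quantile normalization and -0.075 to 0.29 without 1 array, and Sec24c minus Sec24d reached 0.095 without 1 array.

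The replicate block, for numbers not taken as pairs in the main fit, changed the counts named above and lost 9 of the 16 calls. Arrays were not tested for batches, dim probe sets have no known background, and 3 arrays per group set the precision.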
